A study of Mus musculus with 9 samples.

Results

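The metabotropic glutamate receptors were described here from 6 genes, Grm2, Grm3, Grm4, Grm5, Grm7 and Grm8, across 3 pools of mouse motor neurons. Their members were all 9 probe sets whose annotation names one of these genes alone, of 45037 probe sets that are no controls. Grm7 had 3 probe sets, Grm5 had 2 and the other 4 genes had 1 each. A further probe set, which names Grm2 together with Gm28111, was left out by this rule. The motor neurons were laser captured from frozen sections of wild-type male C57BL/6J mice at postnatal day 7, with no treatment in any group. The L5 pool came from the L5 level of the spinal cord, the DL pool from the dorsolateral nucleus, at its L6 level, and the OMN pool from the oculomotor nucleus of the midbrain. The series compares pools that differ in their vulnerability in amyotrophic lateral sclerosis (ALS), in which limb motor neurons such as those of L5 are hit and the other two pools are relatively spared. Each pool had 3 arrays, each made from about 200 cells cut by laser after a cresyl violet stain, and the RNA was amplified before hybridisation to Affymetrix arrays.

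Metabotropic glutamate receptors are G protein-coupled receptors that sense glutamate and act more slowly than the ion channels opened by the same transmitter. Group I receptors, here Grm5, couple to Gq, raise inositol trisphosphate and calcium and mostly sit on the postsynaptic side, where Homer scaffolds hold them. Group II receptors, here Grm2 and Grm3, and group III receptors, here Grm4, Grm7 and Grm8, couple to Gi/o, lower cyclic AMP and often act as brakes on transmitter release. Grm3 and Grm5 are also made by astrocytes in the young brain.

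The values are intensities on a linear scale, with the same trimmed mean on each array, and they carry no information on total RNA per cell. A noise level of 18.3 was set by 27 control probe sets of bacterial transcripts that were not spiked, as their maximum. Between 67.0% and 71.5% of 18193 genes lay above it on an array. Slc18a3, the vesicular acetylcholine transporter of motor neurons, was at 2828 ± 666 in L5, 1662 ± 891 in DL and 2478 ± 418 in OMN (SD, n = 3 each). Chat, which makes acetylcholine, had its probe set at or near the noise level in every pool, between 1.2 and 24.5 on the 9 arrays. For Gapdh, the 3′ control probes over the 5′ ones, which track RNA integrity, gave 2.45 to 2.53 in L5, 2.44 to 3.75 in DL and 2.33 to 2.67 in OMN. Arrays of 1 pool differed least in OMN, with a median SD of 0.171 in log2 values over 7123 bright genes, beside 0.204 in L5 and 0.295 in DL. The labels call the arrays of a pool biological replicates and do not say which animal each came from.

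On GRCm38.p6 as annotated by RefSeq, Grm2 lies at chr9:106644534-106656109, Grm3 at chr5:9485236-9725352, Grm4 at chr17:27422387-27513826, Grm5 at chr7:87583981-88135063, Grm7 at chr6:110645349-111567230 and Grm8 at chr6:27275121-28135146. Where in these genes the probe sets lie was not analysed here. Promoter windows from RefSeq (GRCm38.p6) were at hand for 4 of the 6 genes, Grm2, Grm3, Grm7 and Grm8. The stretches below lie just before the annotated gene and are shown for Grm3, Grm7 and Grm8, which read lower on every L5 array than on any OMN array and lay above the noise level on all arrays. They run 5′ to 3′ on the strand of the gene, and capitals mark the GC box GGGCGG, searched on both strands, which the Grm7 stretch does not hold.
Grm3, chr5:9725353-9725602, minus strand: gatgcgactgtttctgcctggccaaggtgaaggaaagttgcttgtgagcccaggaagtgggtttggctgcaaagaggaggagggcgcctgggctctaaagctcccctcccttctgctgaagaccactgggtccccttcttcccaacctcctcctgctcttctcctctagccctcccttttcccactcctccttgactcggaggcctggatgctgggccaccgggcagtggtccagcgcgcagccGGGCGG
Grm7, chr6:110645262-110645348, plus strand: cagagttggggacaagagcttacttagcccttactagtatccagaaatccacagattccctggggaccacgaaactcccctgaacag
Grm8, chr6:28135147-28135396, minus strand: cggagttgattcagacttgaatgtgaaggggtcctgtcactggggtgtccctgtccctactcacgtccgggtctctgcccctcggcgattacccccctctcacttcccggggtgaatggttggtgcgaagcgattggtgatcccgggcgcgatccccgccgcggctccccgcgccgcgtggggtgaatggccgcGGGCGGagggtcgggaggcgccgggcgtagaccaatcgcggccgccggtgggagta
Over the whole windows, which also reach past the start site (1 of the windows listed for a gene), the GC box occurred 2 times for Grm3, 1 time for Grm7, 1 time for Grm8 and 4 times for Grm2. It was present in 35.7% of the 32851 windows in the table. The CCAAT box CCAAT was found 2 times for Grm8, 1 time for Grm2 and not in the windows of Grm3 or Grm7, against 37.4% of all windows. The TATA box TATAAA, present in 13.6% of all windows, was in 0 of the 4. The E-box CANNTG, present in 72.3%, was found 1 time for Grm8 and not in the other three windows. Each match is only a run of letters in these windows.

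In pool means Grm2, Grm5, Grm7 and Grm8 were lowest in the limb pool and highest in the oculomotor pool, unlike Grm3 and Grm4. All L5 arrays lay below all DL arrays only for Grm5 and Grm7, while for Grm2 and Grm8 these pools overlapped. Grm5 and Grm7 were lower in L5 than in OMN, and Grm3 was lower in DL than in either other pool. Grm4 was not called in any comparison. In a bulk sample a smaller share of cells that make a receptor and less receptor RNA per cell cannot be told apart. Genes are called here at an adjusted p under 0.05 in the limma fit of all 9 arrays, over 18193 genes with 1 probe set each, and differences are in log2(intensity + 16).

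**Figure D1:**
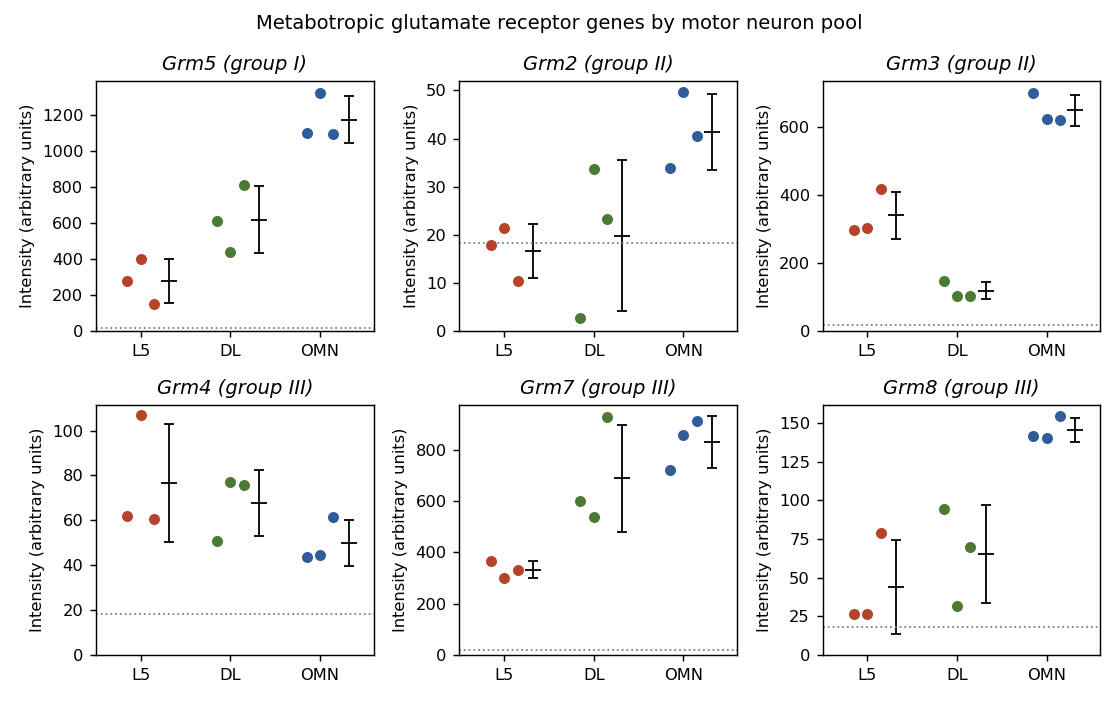
Intensities of the 6 receptor genes, 1 panel each, for the L5, DL and OMN pools on a linear axis. Points are arrays 1 to 3 of a pool, the bar beside them is the mean with its SD, and the dotted line is the noise level of 18.3. OMN points lie above all L5 points for Grm2, Grm3, Grm5, Grm7 and Grm8, and Grm4 points overlap among pools.

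Grm5, the group I receptor that drives Gq signalling, was lowest in the limb pool. Its brighter probe set had intensities of 281, 401 and 153 in L5, 611, 438 and 808 in DL, and 1102, 1322 and 1094 in OMN. All L5 values lay below all DL values, and all DL values lay below all OMN values. The mean was 278 ± 124 in L5 and 1173 ± 130 in OMN (SD, n = 3 each), and Grm5 fell by 2.10 ± 0.37 (SE) on the log2 scale in L5 (limma adjusted p = 0.0385). Against DL, with a mean of 619 ± 185, the log2 difference of L5 was -1.16, with a 95% interval of -2.04 to -0.29, and did not pass the threshold (adjusted p = 0.157). Between DL and OMN it was -0.94 (interval -1.81 to -0.07, adjusted p = 0.275). The uncalled difference of L5 and DL shrank to -0.33 with DL replicate 2 as the only DL array, to -0.73 without L5 replicate 3 and to -0.75 without DL replicate 3. With trended robust variances it was called (adjusted p = 0.0489). That of DL and OMN ran between -0.53 without DL replicate 2 and -1.77 with that replicate as the only DL array. The call against OMN was lost on leaving out any L5 array, any OMN array or DL replicate 1, with adjusted p of 0.0655 to 0.168, and with a pseudocount of 1 (adjusted p = 0.12). Fitted among all 45037 probe sets it also missed the threshold (adjusted p = 0.0564), which 0.593% of probe sets passed as lower.

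The dimmer probe set of Grm5 gave the same order of L5 and OMN and a different picture in DL. It read 118, 112 and 136 in L5, 245, 261 and 89.1 in DL, and 320, 529 and 413 in OMN. On DL replicate 3 it was the lowest of the 9 arrays, while the brighter probe set was at its DL maximum on the same array, which also had the highest Gapdh ratio, 3.75. With the Gapdh ratio as a covariate, the brighter probe set differed by -0.50 between L5 and DL and by -1.60 between DL and OMN. In the limma fit of all probe sets the dimmer one differed by -1.64 ± 0.36 between L5 and OMN (adjusted p = 0.108). The dimmer probe set differed by -0.51 ± 0.36 between L5 and DL and by -1.12 ± 0.36 between DL and OMN. With the mean of both probe sets in place of the brighter one, Grm5 was called lower in DL than in OMN (log2 difference -1.03, adjusted p = 0.0304).

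**Figure D2:**
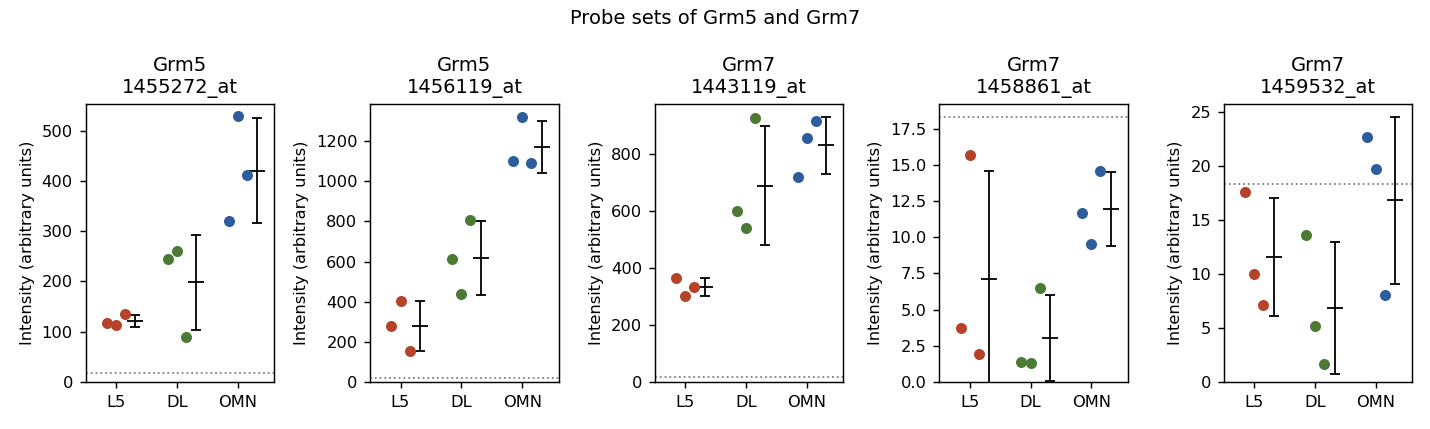
Intensities of the 2 Grm5 and the 3 Grm7 probe sets in L5, DL and OMN on linear axes that differ in range. Points are arrays 1 to 3, bars are mean and SD (n = 3), and the dotted line is the noise level of 18.3. Both Grm5 probe sets are highest in OMN, and 2 of the Grm7 probe sets stay at or near the noise level.

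Grm3, the group II receptor shared by neurons and astrocytes, differed most between DL and OMN. It read 299, 304 and 419 in L5, 149, 105 and 104 in DL, and 702, 625 and 623 in OMN. The 3 pools did not overlap, with OMN on top, L5 between and DL lowest. Grm3 averaged 119 ± 25.5 in DL and 650 ± 45.4 in OMN, and it fell by 2.32 ± 0.22 on the log2 scale in DL (adjusted p = 0.00311). This call was kept on leaving out any 1 of the 9 arrays, with adjusted p of 0.00761 to 0.0284, and with DL replicate 2 as the only DL array the difference was -2.36 (adjusted p = 0.0567).

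Between the spinal pools Grm3 was higher in L5, at 341 ± 68.0 against 119 ± 25.5 in DL. The log2 difference was 1.40 ± 0.22 (limma adjusted p = 0.0271). That call was lost on leaving out any of the 9 arrays, with adjusted p of 0.0567 to 0.123, and when the Gapdh ratio was a covariate (adjusted p = 0.119). Between L5 and OMN the log2 difference was -0.91 ± 0.22 (interval -1.44 to -0.39) and did not pass the threshold (adjusted p = 0.106). With no replicate block it did (adjusted p = 0.0497). Fitted among all probe sets, Grm3 was called lower in DL than in OMN (adjusted p = 0.00482, with 1.17% of probe sets called lower) and higher in L5 than in DL (adjusted p = 0.0383, with 0.702% called higher).

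Grm2, the other group II receptor and mainly a presynaptic one, was near the noise level in the spinal pools. It read 17.9, 21.4 and 10.5 in L5, 2.7, 33.6 and 23.2 in DL, and 33.9, 49.6 and 40.5 in OMN. Each OMN value lay above every spinal value, though DL replicate 2 came close, and L5 and DL overlapped. The log2 difference was -0.82 (interval -1.52 to -0.12) between L5 and OMN and -0.78 (interval -1.48 to -0.08) between DL and OMN, and limma called neither (adjusted p = 0.243 and 0.256). The difference of DL and OMN became -0.40 without DL replicate 1, -0.41 with DL replicate 2 as the only DL array and -1.52 with a pseudocount of 1 (adjusted p = 0.41), and between L5 and OMN that pseudocount gave -1.30. Between L5 and DL it was -0.04 (interval -0.74 to 0.66). The probe set shared with Gm28111 lay between 5.0 and 22.4 on the 9 arrays, with no pool above another.

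Grm7, a group III receptor of low glutamate affinity that sits at release sites, was lower in L5 than in OMN. Its brightest probe set read 365, 300 and 332 in L5, 599, 539 and 925 in DL, and 719, 856 and 914 in OMN. L5 lay below both other pools on every array, while DL and OMN overlapped. The mean was 332 ± 32.5 in L5 and 830 ± 99.9 in OMN, and Grm7 fell by 1.28 ± 0.22 on the log2 scale in L5 (adjusted p = 0.0378). Against DL, at 688 ± 208, the difference was -0.98 ± 0.22 (interval -1.51 to -0.46, adjusted p = 0.0737), and with no replicate block it passed the threshold (adjusted p = 0.0461). Between DL and OMN it was -0.30 (interval -0.82 to 0.23, adjusted p = 0.601).

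The Grm7 call against OMN was lost on leaving out any L5 array, any OMN array or DL replicate 1 (adjusted p of 0.0604 to 0.17). It was also lost with a pseudocount of 1 (adjusted p = 0.117), and in the fit of all probe sets (adjusted p = 0.0559). The other two Grm7 probe sets were dim. One lay between 1.3 and 15.7, under the noise level on every array, and the other passed that level on 2 OMN arrays, with 22.7 as its highest value. No fold is given for them. With all 3 probe sets averaged, the difference was -0.61 between L5 and OMN (adjusted p = 0.134) and -0.15 between L5 and DL.

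Grm8, a group III receptor known as a presynaptic brake on glutamate release, read higher in OMN than in both spinal pools. It was at 26.3, 26.6 and 79.0 in L5, 94.5, 31.8 and 70.1 in DL, and 142, 141 and 155 in OMN. The OMN arrays lay close together above all others, and the spinal pools overlapped and were spread widely. The log2 difference was -1.54 ± 0.34 (interval -2.33 to -0.75) between L5 and OMN and -1.07 ± 0.34 (interval -1.86 to -0.28) between DL and OMN. Neither passed the threshold (limma adjusted p = 0.0772 and 0.169). The SD of log2 values was 0.67 in L5 and 0.62 in DL, against 0.07 in OMN, and the fit uses 1 spread for all pools.

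Grm4, the group III receptor best known from cerebellar parallel fibres, was the one receptor whose mean was not lowest in a spinal pool. It read 62.0, 107 and 60.7 in L5, 50.7, 77.0 and 75.6 in DL, and 43.5, 44.5 and 61.6 in OMN. All 3 pools overlapped. The log2 difference was 0.47 (interval -0.09 to 1.02) between L5 and OMN, 0.12 (interval -0.43 to 0.68) between L5 and DL, and 0.34 (interval -0.22 to 0.90) between DL and OMN, with adjusted p of 0.393, 0.835 and 0.564.

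Counted over the family, L5 was lower than OMN in 2 of 6 genes and higher in 0, with 5 lower at an unadjusted p under 0.05, as were 7.93% of all genes. Of all 18193 genes 1.22% were called lower and 0.945% higher. The L5 arrays lay below all OMN arrays in 5 of 6 genes, a pattern found in 12.8% of all genes, and the median log2 difference of the 6 was -1.10 beside 0.01 over all genes. Between L5 and DL, 1 gene, Grm3, was higher (1.28% of all genes) and 0 were lower (1.28%), with 1 higher and 2 lower at an unadjusted p under 0.05, where 10.9% and 7.96% of all genes were. Arrays did not overlap for Grm3, higher in L5 (13.8% of all genes), and for Grm5 and Grm7, lower in L5 (9.67%). The median difference was -0.25 beside 0.06 over all genes. Between DL and OMN, 1 gene, Grm3, was lower (1.65% of all genes) and 0 were higher (1.37%), 4 did not overlap with DL lower (11.6%), and the median was -0.86 beside -0.04. These comparisons share arrays, so their counts are not independent of each other.

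Set against the mean of the other two pools, which are the relatively spared ones, L5 was lower in 1 of 6 genes, Grm7 (1.1% of all genes were called lower), and higher in 0 (1.03%). The log2 difference of Grm7 was -1.13 ± 0.19 (limma adjusted p = 0.0371), and the call was lost on leaving out any of the 9 arrays (adjusted p of 0.0501 to 0.184) and with its 3 probe sets averaged (-0.38, adjusted p = 0.246). Grm5 had the larger difference, -1.63 ± 0.32, and just missed the threshold (adjusted p = 0.0546), which it passed with no replicate block (adjusted p = 0.0186). For both genes every L5 array lay below all 6 other arrays, as in 4.35% of all genes. Grm8 differed by -1.01 ± 0.29 (adjusted p = 0.14) and Grm2 by -0.43 ± 0.26. Grm3, with 0.24 ± 0.19, and Grm4, with 0.30 ± 0.21, read slightly higher in L5. For Grm3 this mean joins a pool above L5 with one below it.

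**Figure D3:**
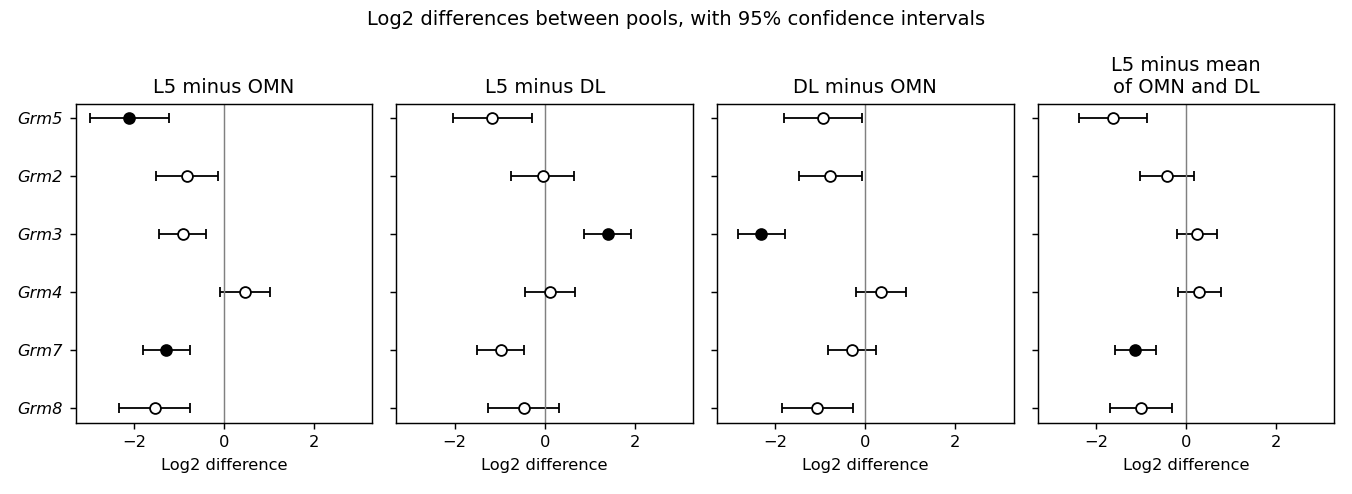
Log2 differences of the 6 receptor genes in the 4 comparisons, each named above its panel, with 95% confidence intervals of the limma fit. Filled circles passed an adjusted p of 0.05 and open circles did not. Filled are Grm5 and Grm7 for L5 minus OMN, Grm3 for L5 minus DL and DL minus OMN, and Grm7 for L5 against the mean of the others.

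The receptors followed different patterns over the 9 arrays. Grm5 and Grm7 had a Pearson r of 0.88 in log2 values, and Grm7 and Grm8 one of 0.72, while Grm3 had 0.26 with Grm5 and 0.07 with Grm7. Grm4 ran against Grm8 with -0.75. These values describe 9 arrays in 3 pools and hold the differences between pools. Among 11783 genes above the noise level in a pool, those most like Grm3 were Sfxn5 (0.98), Maf, a bZIP transcription factor (0.97), and Lrrc38 (0.97), an accessory subunit of calcium-activated potassium channels. Maf read 872 ± 152 in L5, 320 ± 87.7 in DL and 1994 ± 118 in OMN. That is the order of Grm3, which follows from picking Maf by its correlation with Grm3 on these arrays. Most like Grm5 were the nuclear receptor gene Nr2c2 (0.97), the transcription factor gene Mef2c (0.97) and the potassium channel gene Kcnc2 (0.96), and Mef2c read 112 ± 29.7 in L5, 218 ± 60.6 in DL and 425 ± 63.0 in OMN. Most like Grm7 were Ptprg, a receptor tyrosine phosphatase (0.98), Ephb1, a receptor for ephrin-B ligands (0.98), and Pnrc2 (0.97). Most like Grm8 were Sec22c (0.95), Adcyap1, which encodes the peptide PACAP (0.94), and Tmem170 (0.93). For Grm2 they were Syngr1, Cnnm3 and Nusap1, with 0.95 to 0.97, and for Grm4 Plekhh3, Pknox1 and Serhl, with 0.90 to 0.91.

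Downstream of Grm5, single genes of the Gq arm differed while most did not. Of 19 measured genes for Gq proteins, phospholipase C, inositol trisphosphate receptors, protein kinase C and TRPC channels, L5 against OMN gave 1 higher and 1 lower, where 2.17% of all genes were called. Itpr3, a calcium release channel, was at 42.1 ± 6.00 in L5 and 2.43 ± 1.63 in OMN. As OMN lay under the noise level, L5 was at least 2.29-fold higher (limma adjusted p = 0.00776). Trpc7, a cation channel gene, was at 13.0 ± 7.28 in L5 and 96.1 ± 27.9 in OMN, at least 5.08-fold lower in L5 (adjusted p = 0.00611), and its DL values, 7.03 ± 7.54, were also under the noise level (adjusted p = 0.00255 against OMN). Between L5 and DL, 1 gene was higher and 1 lower, where 2.55% of all genes were called. Gna14, a Gq-class subunit, stood at 973 ± 13.2 in L5 and 208 ± 76.8 in DL (log2 difference 2.20 ± 0.31, adjusted p = 0.0188). Trpc5, a cation channel that Gq-coupled receptors open, was at 234 ± 64.8 in L5 and 846 ± 482 in DL (adjusted p = 0.0495), and it was higher in DL than in OMN, at 144 ± 10.8 (adjusted p = 0.014). In DL 1 gene of the list was higher than in OMN and 1 lower, where 3.02% of all genes were called. The Trpc5 call between L5 and DL was lost on leaving out any of the 9 arrays (adjusted p of 0.0507 to 0.182) and its call between DL and OMN without OMN replicate 1 or 2 (up to 0.0849). That of Gna14 was lost without any L5 array or DL replicate 1 or 2 (up to 0.106), that of Itpr3 without L5 replicate 1 or 2 or OMN replicate 1 or 3 (up to 0.0648), and that of Trpc7 between L5 and OMN without L5 replicate 1 or 3 or OMN replicate 2 (up to 0.0534).

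In the Gi/o arm used by the other receptors, 20 genes for Gi/o subunits, adenylate cyclases, GIRK channels and presynaptic calcium channels were measured. In L5, 0 were higher and 1 lower than in OMN (0.945% and 1.22% of all genes). At an unadjusted p under 0.05, 1 was higher and 9 lower, where 8.01% and 7.93% of all genes were. The median log2 difference was -0.39 beside 0.01 over all genes. Kcnj5, a GIRK channel subunit opened by Gi/o-coupled receptors, was at 0.6, 14.0 and 0.9 in L5, 304, 268 and 110 in DL, and 193, 246 and 247 in OMN. It was under the noise level on all L5 arrays, at least 12.4-fold lower in L5 than in OMN (limma adjusted p = 0.00375) and at least 11.3-fold lower than in DL (adjusted p = 0.00594). Adcy9, an adenylate cyclase, was at 432 ± 65.5 in L5 and 129 ± 50.3 in DL (adjusted p = 0.0321). Both Kcnj5 calls were kept on leaving out any 1 array, with adjusted p up to 0.0394 against OMN and 0.04997 against DL. The call against DL was lost with a pseudocount of 1 (adjusted p = 0.0541) and with DL replicate 2 as the only DL array (adjusted p = 0.0706). The call of Adcy9 was lost without any L5 array, OMN replicate 1 or 2, or DL replicate 1 or 3 (up to 0.143). Between DL and OMN limma called 0 of the 20, with 1 higher and 4 lower at an unadjusted p under 0.05, where 6.4% and 9.6% of all genes were.

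Regulators of G protein signalling, which shorten the action of such receptors, were measured with receptor kinases and arrestins as 20 genes. L5 against OMN gave 1 higher and 1 lower (0.945% and 1.22% of all genes), L5 against DL 0 and 1 (1.28% each), and DL against OMN 2 and 1 (1.37% and 1.65%). Rgs4, which acts on both Gq and Gi/o subunits, was at 1937 ± 345 in L5, 1640 ± 95.3 in DL and 655 ± 7.86 in OMN (log2 difference of L5 and OMN 1.53 ± 0.19, adjusted p = 0.0122, and of DL and OMN 1.30 ± 0.19, adjusted p = 0.0168). Rgs10, which acts on Gi/o subunits, was at 184 ± 34.7 in L5, 1118 ± 94.0 in DL and 452 ± 70.9 in OMN (log2 difference of L5 and DL -2.51 ± 0.22, adjusted p = 0.00493). It is also known as a microglial gene, and the summed intensity of 11 microglia markers was 1019 to 1184 in L5, 609 to 1239 in DL and 918 to 1315 in OMN. Rgs6 was lower in DL than in OMN, at 173 ± 28.4 and 361 ± 33.3 (adjusted p = 0.0435). The call of Rgs10 between L5 and DL was kept on leaving out any 1 array (adjusted p up to 0.0401) and lost with DL replicate 2 as the only DL array (adjusted p = 0.0891). Its difference of -1.23 ± 0.22 between L5 and OMN was called (adjusted p = 0.0384) and lost without any array other than DL replicate 2 (up to 0.183), and its difference of 1.29 ± 0.22 between DL and OMN (adjusted p = 0.0273) was lost without any array other than L5 replicate 3 or DL replicate 2 (up to 0.13). The call of Rgs4 between L5 and OMN was lost without any L5 or OMN array (up to 0.0819), its call between DL and OMN without any OMN array or DL replicate 2 or 3 (up to 0.097), and that of Rgs6 without any of the 9 arrays (0.0712 to 0.178).

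**Figure D4:**
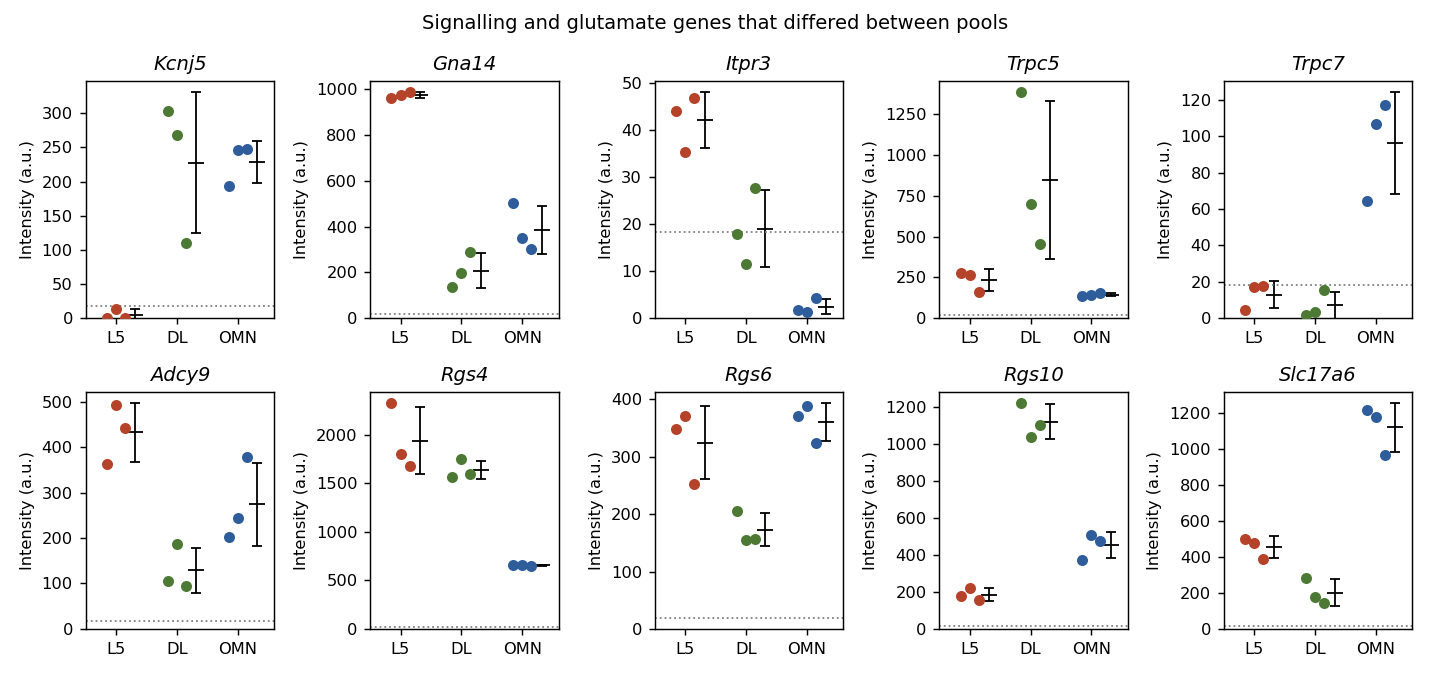
Intensities of 10 genes of receptor signalling and glutamate release that were called in a comparison, for L5, DL and OMN on linear axes. Points are arrays 1 to 3, bars are mean and SD (n = 3), and the dotted line is the noise level of 18.3. Kcnj5 lies under that line on all L5 arrays, and Rgs10 is highest on all DL arrays.

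Scaffolds and partners of these receptors were not called. Of 20 measured, Homer, Shank and Elfn genes among them, limma called 0 in each comparison, with 3 or 4 at an unadjusted p under 0.05. That p was reached by 15.9% of all genes between L5 and OMN, 18.9% between L5 and DL, 16% between DL and OMN and 18.3% between L5 and the mean of the others. Of 12 genes for dendritic protein synthesis linked to group I receptors, such as Fmr1, and of 8 for NAAG, a peptide agonist of Grm3, limma likewise called 0 in each comparison, with 1 to 3 of the first and 1 or 2 of the second at an unadjusted p under 0.05. Among 14 genes for glutamate uptake, release and synthesis 1 was called between each pair of pools, where 2.17% to 3.02% of all genes were. It was Slc17a6, which loads glutamate into synaptic vesicles, at 456 ± 59.8 in L5, 202 ± 73.8 in DL and 1124 ± 136 in OMN. This is the order of Grm3, and the log2 difference was -1.27 ± 0.21 between L5 and OMN (limma adjusted p = 0.0289), 1.16 ± 0.21 between L5 and DL (adjusted p = 0.0371) and -2.43 ± 0.21 between DL and OMN (adjusted p = 0.00224). On leaving out 1 array the last call was always kept (adjusted p up to 0.0213), the call against OMN in L5 was lost without any L5 or OMN array (up to 0.15), and that between L5 and DL without any of the 9 (0.0584 to 0.16).

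Other cells around the cut neurons were also measured. Among 15 astrocyte markers L5 against OMN gave 1 higher, Gfap, and 0 lower. L5 against DL gave 2 higher and 1 lower, Gfap, and DL against OMN gave 1 higher, Gfap again, and 0 lower. Of all genes 0.945% were called higher and 1.22% lower in the first of these comparisons. In the second the shares were 1.28% each, and in the third 1.37% and 1.65%. Their summed intensity was 34316 to 37669 in L5, 28496 to 31497 in DL and 29315 to 30593 in OMN. Gfap, a filament protein of astrocytes, measured 325 ± 82.4 in L5, 1550 ± 683 in DL and 18.0 ± 5.34 in OMN. Aqp4, an astrocyte water channel, was at 4413 ± 416, 4338 ± 550 and 3327 ± 189, and Gja1, an astrocyte gap junction gene, at 2987 ± 140, 3189 ± 204 and 3252 ± 149 in L5, DL and OMN. S100b and Slc7a10 were higher in L5 than in DL, as Grm3 was. The S100b call was lost without any of the 9 arrays (adjusted p of 0.0566 to 0.135), that of Slc7a10 without any array other than OMN replicate 3 (up to 0.165), and that of Gfap between L5 and DL without L5 replicate 2 or 3 or any DL array (up to 0.109). In pool means 3 of the 15 markers ran in the order of Grm3, highest in OMN and lowest in DL (17.2% of all genes did), and 1, Gfap, ran the other way (14.1%). The 3, named after their values were seen, were Aldh1l1, Slc4a4 and Glul. Aldh1l1 was at 385 ± 81.3 in L5, 274 ± 54.1 in DL and 533 ± 189 in OMN. In DL against OMN 3 markers were lower and 1 higher at an unadjusted p under 0.05, where 9.6% and 6.4% of all genes were. The 3 were Slc7a10 (log2 difference -1.04, adjusted p = 0.0803), Aldh1l1 (-0.88, adjusted p = 0.0875) and Slc4a4 (-0.47, adjusted p = 0.261). The part of astrocytes in the Grm3 and Grm5 values was not tested further.

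The summed intensity of 14 oligodendrocyte and precursor markers was 18843 to 19829 in L5, 24521 to 27277 in DL and 15522 to 17119 in OMN, with 3 of the 14 called higher in DL than in OMN (1.37% of all genes were) and lower in L5 than in DL (1.28%). The 3 were Cldn11, Ermn and Ugt8a. All 3 calls of L5 and DL were lost without any of the 9 arrays (adjusted p up to 0.17). Of the calls of DL and OMN that of Ugt8a was also lost without any of them, that of Cldn11 without any OMN array or DL replicate 2 or 3, and that of Ermn without OMN replicate 2 or 3 or DL replicate 2 or 3 (up to 0.13). In pool means 8 of the 14 markers ran opposite to Grm3 (14.1% of all genes did), and 2, Olig1 and Olig2, ran in its order (17.2%). Pdgfra, a marker of precursors, was at 352 ± 41.0 in L5, 320 ± 45.8 in DL and 263 ± 44.7 in OMN, while Olig2 was at 191 ± 69.1 in L5, 97.9 ± 33.6 in DL and 238 ± 48.8 in OMN. The 6 inhibitory interneuron markers summed to 1642 to 2284 in L5, 5036 to 5922 in DL and 1928 to 2724 in OMN. Of them Gad2, which makes GABA, was at 269 ± 18.4 in L5, 2340 ± 340 in DL and 1312 ± 120 in OMN. Slc6a5, a glycine transporter, was at 551 ± 90.2 in L5, 707 ± 248 in DL and 22.6 ± 14.7 in OMN, and Slc32a1, which loads GABA and glycine into vesicles, at 963 ± 258 in L5, 1882 ± 324 in DL and 475 ± 127 in OMN. Of the 6, limma called 1 higher and 2 lower for L5 against OMN (0.945% and 1.22% of all genes). It called 0 and 2 for L5 against DL (1.28% each), and 2 and 0 for DL against OMN (1.37% and 1.65%). The 7 excitatory interneuron markers summed to 479 to 602 in L5, 281 to 534 in DL and 1323 to 1644 in OMN. Most of this sum came from 2 genes, Slc17a6, given above, and Pou4f1. Pou4f1 was at 62.5 ± 21.1 in L5, 185 ± 133 in DL and 365 ± 55.0 in OMN. In pool means 2 of the 7, Slc17a6 and Lmx1b, ran in the order of Grm3 (17.2% of all genes did). Another 2, Tlx3 and Tac2, ran the other way (14.1%). The means of Lmx1b, Tlx3 and Tac2 lay under the noise level in every pool, as did those of Slc17a7 and Lbx1. Of the 7, limma called 1 between each pair of pools, Slc17a6, where 2.17% to 3.02% of all genes were. The part of neurons other than motor neurons in the receptor values was not tested.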

How the data were processed

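Motor neurons of 3 pools were profiled on Affymetrix Mouse Genome arrays, 3 arrays a pool. The authors deposited 1 table of linear intensity values, and on each array the mean after removing 2% of values at each end was 250.0. Their software is not given in the sources used. Per the labels' protocols, sections were 12 µm thick and 1.5 ng of RNA or more went into the amplification. Precision is limited by the number of arrays.

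Control probe sets (64) were set aside. Of the other 45037, 34945 named 1 gene, 932 several and 9160 none. Gene IDs of 34741 were found in RefSeq and 0 symbols changed. Each gene took its probe set with the highest mean, leaving 18193 genes. Values were converted to log2(intensity + 16) and fitted over 9 arrays with limma 3.58.1 in R 4.3.3, modelling pool plus a replicate block, since each animal gave all pools. No label says that equal numbers mean 1 animal. Benjamini-Hochberg adjustment ran over all genes. A second fit took all 45037 probe sets. The method was tested on simulated arrays for L5 against OMN. Differences were planted in brighter genes only, in independent noise, with no replicate effect and no other difference between pools. Grm2 is dimmer than the planted genes. It recovered 7.46% of 67 planted log2 differences of 1, 71.6% of 67 of 2 and 86.4% of 66 of 3. Of its calls 2.65% were false. Under these settings most differences of 1 went uncalled, and the share missed in the real arrays was not tested.

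The members, the 15 other gene lists (196 of all 218 symbols were measured) and the alternatives were chosen with earlier results of these data known. Named were all members, of each list the called genes with the smallest p (3 at most), a set of defining markers, and the 3 genes most correlated with each member. Outside this rule, Olig1, Olig2, Lmx1b, Tlx3, Tac2, Aldh1l1, Slc4a4 and Glul were named for their order over the pools, after their values were seen. Pou4f1 and Nefl were named for their part in a sum, and Slc17a7 and Lbx1 for lying under the noise level. Marker lists whose calls are not given beside the receptors follow here, and those of the inhibitory markers are repeated. The 14 motor neuron markers summed to 63766 to 65671 in L5, 42627 to 51350 in DL and 46806 to 49623 in OMN, Nefl having the largest part. L5 against OMN gave 2 higher, Mnx1 among them, and 2 lower, Isl1 and Tbx20 (0.945% and 1.22% of all genes). L5 against DL gave 0 and 1, Isl1 (1.28% each). DL against OMN gave 2 higher, Mnx1 among them, and 2 lower, Lhx4 and Tbx20 (1.37% and 1.65%). Isl1 was at 598 ± 134 in L5, 2717 ± 414 in DL and 2129 ± 45.7 in OMN. Its call between L5 and OMN was lost without L5 replicate 1 or 2 or any OMN array, and that between L5 and DL without L5 replicate 1 or 2. Inhibitory markers gave 1 and 2, 0 and 2, and 2 and 0. The 2 lower in L5 than in OMN, and also than in DL, were Gad1 and Gad2. For Gad1 both calls were lost without any L5 or OMN array or DL replicate 1. Its call between L5 and DL was lost also without DL replicate 3. Of 11 microglia and 11 endothelial markers limma called 0 in each pair, with 1 to 4 and 1 to 3 at an unadjusted p under 0.05. That p was reached by 15.9% to 18.9% of all genes. Of 5 Schwann cell and ganglion markers, of which 2 passed the noise level on any array, it called 1 in each pair, Pmp22, where 2.17% to 3.02% of all genes were called. Pmp22 was at 2060 ± 176 in L5, 875 ± 183 in DL and 135 ± 37.1 in OMN. Its call between L5 and DL was lost without any of the 9 arrays. Alternatives were a pseudocount of 1, quantile normalization, median centring, no block, only 2 pools, trended robust variances, array weights, the mean of probe sets, a noise filter, the Gapdh ratio as a covariate, and arrays left out.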

Additional observations from a re-analysis of the deposited data

How the results depend on the processing

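Each receptor result was recomputed under 20 alternatives. Of 474 such values, 405 kept their direction and side of the threshold, 44 lost a call, 16 gained one and 9 changed sign, the last all in differences that were not called. Between L5 and DL, Grm2 became 0.2174 with a pseudocount of 1 and 0.0666 with array weights and ranged from -0.4205 to 0.1618 without 1 array, positive without L5 replicate 2 or 3 or DL replicate 2 or 3. Grm4 became -0.0443 with arrays centred on their medians and ranged from -0.0849 to 0.3407 without 1 array, negative without L5 replicate 2. Grm8 became 0.0027 with DL replicate 2 as the only DL array. The cause was not tested.

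The count of receptors called, 2 between L5 and OMN, became 0 with a pseudocount of 1, 4 with array weights and 1 with probe sets averaged, and was 0 to 2 without 1 array. Between L5 and DL, where it was 1, it was 0 with a pseudocount of 1, with only the pools compared, with the Gapdh ratio, with DL replicate 2 as the only DL array and without any 1 array. It was 2 with median centring and 3 with trended robust variances. Between DL and OMN, where it was 1, it became 2 with probe sets averaged and 0 with DL replicate 2 alone. For L5 against the mean of the others, where it was 1, it became 0 with a pseudocount of 1, the Gapdh ratio or DL replicate 2 alone, and 2 with median centring, trended robust variances, array weights or the noise filter, and was 0 to 1 without 1 array. With probe sets averaged it stayed at 1, with Grm5 in place of Grm7.

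Of all genes, 394 were called between L5 and OMN, against 103 with a pseudocount of 1, 946 with trended robust variances, 676 with array weights and 83 to 375 without 1 array. Between L5 and DL 464 were called, against 61 with a pseudocount of 1, 46 with only the pools compared, 1153 with trended robust variances, 89 with the Gapdh ratio and 55 to 259 without 1 array. With DL replicate 2 as the only DL array limma called 0, with 3007 at an unadjusted p under 0.05. Between DL and OMN 550 were called, against 200 with a pseudocount of 1, 120 with only the pools compared, 880 with trended robust variances, 279 with the Gapdh ratio, 128 with DL replicate 2 alone and 186 to 370 without 1 array. For L5 against the mean of the others 387 were called, against 53 with a pseudocount of 1, 1070 with trended robust variances, 152 with the Gapdh ratio, 95 with DL replicate 2 alone and 37 to 305 without 1 array. Comparing only the pools concerned gave no value there. Median centring moved the median of all genes by 0.21 between DL and OMN and by -0.17 between L5 and DL. It changed the split of higher and lower calls to 384 and 195 between DL and OMN, beside 249 and 301, to 169 and 406 between L5 and DL, beside 232 each, and to 164 and 254 for L5 against the mean, beside 187 and 200.

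Without the replicate block 806 genes were called between L5 and DL and 695 for L5 against the mean of the others, and 2 receptors were called in each. Correlations of deviations ran from -0.0713 to 0.0586 over 9 pairs of arrays with equal numbers and from -0.065 to 0.0539 over 18 pairs with different numbers, so the numbers showed no pairing in the values.

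Of 58 calls of list genes, 22 were kept on leaving out any 1 array, 36 were lost without at least 1 and 9 of these without any of them, and 0 changed sign. With a pseudocount of 1, 33 of the 58 were lost, with DL replicate 2 as the only DL array 35, with the Gapdh ratio 25, and with only the pools compared 23 of 46. The other settings lost 0 to 9. Probe sets near the noise level of 18.3, as for Grm2, limit what can be measured.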
